A study of Mus musculus with 4 samples.

Results

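The transition proteins, the protamines and the linker histones of spermatids are chromatin proteins of maturing sperm cells. Their 7 genes were taken by symbol from the deposited gene table of mouse spermatocytes, as the transition protein genes Tnp1 and Tnp2, the protamine genes Prm1, Prm2 and Prm3, and the linker histone genes H1fnt and Hils1. All 7 were among the 23980 genes of the table. The table gives for each gene and library an estimated number of fragments and an FPKM, that is, fragments scaled to transcript length and library depth, and levels of different genes are compared here in FPKM only.

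In round and elongating spermatids, the haploid cells that follow meiosis, histones are first acetylated and loosened, then exchanged for transition proteins, and finally for protamines, small arginine-rich proteins that pack the DNA tightly. The genes are transcribed mainly in round spermatids, under factors such as CREM, and the mRNAs of the transition proteins and protamines are stored in ribonucleoprotein particles and translated later. The linker histones H1fnt (also called H1T2) and Hils1 are made mainly in spermatids, and loss of Prm1, Prm2 or H1fnt is known to impair male fertility.

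The study asked how gene expression changes in meiotic male germ cells that lack Pld6, which encodes a nuclease of piRNA production, or Dnmt3l, which encodes a cofactor of de novo DNA methylation. RNA with poly(A) tails was sequenced from leptotene/zygotene (L/Z) spermatocytes, cells at the start of meiosis, which had been purified by fluorescence-activated cell sorting (FACS). There were 4 libraries, 1 each from a Dnmt3L heterozygote, a Pld6 WT, a Pld6 KO and a Dnmt3L KO, all of the F1 hybrid strain C57BL6/J by MSM/Ms and collected 3 to 4 weeks after birth. The heterozygote, which carries 1 mutant allele, and the Pld6 WT served together as the 2 controls, so that the spread between controls also holds a difference of genotype and line. By the study's methods the mutations had been crossed into MSM/Ms for several generations before the last cross. The study also describes mutant testes at this age as holding germ cells only up to zygotene, while WT testes hold spermatids too. Each mutant is a single library without a replicate, and the labels do not say how many animals went into a library.

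Total fragments in genes ranged from 30439943 (Pld6 KO) to 63875934 (Dnmt3L heterozygote). These totals are above the reads per library named in the study's methods for a reason not given in the sources used here, so that counting intervals may be too narrow. Each targeted gene was lowest in its own KO library, with Pld6 at 0.334 FPKM in the Pld6 KO against 8.55 FPKM or more elsewhere, and Dnmt3l at 0 fragments in the Dnmt3L KO. The 14 L/Z markers on the list used here, such as Sycp3, Dmc1 and Stra8, were detected in all 4 libraries, with a summed level from 1200.1 FPKM (Dnmt3L KO) to 3242 FPKM (Pld6 WT). The libraries also held markers of cells outside that gate. The 12 Sertoli cell markers summed to 6654 FPKM (heterozygote) and 8587 FPKM (KO) in the Dnmt3L line, but to 271 FPKM (WT) and 587 FPKM (KO) in the Pld6 line, and 0 of the 12 was at 0 in any library.

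The genes lie on 4 chromosomes (coordinates of GRCm38, which are those of mm10). Tnp2, Prm3, Prm2 and Prm1 sit side by side on the minus strand of chromosome 16, at 10787935 to 10788655, 10790508 to 10790914, 10791377 to 10792105 and 10796332 to 10796823, within 8889 bases. Tnp1 is on the minus strand of chromosome 1 at 73015074 to 73015899. The noncoding gene 1700027A15Rik runs from the plus strand and starts 137 bases upstream of Tnp1 in RefSeq, while its GENCODE model spans Tnp1. H1fnt (H1f7 in RefSeq) is on the minus strand of chromosome 15 at 98255982 to 98257307. Hils1 is on the plus strand of chromosome 11 at 94967593 to 94968456 and lies inside Sgca, a sarcoglycan gene of the opposite strand. The library kit keeps strand, but the strand setting of the authors' counting was not given in the sources used here, so reads of Hils1 and Sgca, and of Tnp1 and its antisense partner, may not have been told apart.

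The 250 bases upstream of the start were read for all 7 genes from RefSeq promoter sequences (build GRCm38.p6), because CREM acts through the cAMP response element and TATA boxes fix the start of many genes. The full palindrome TGACGTCA was in 0 of the 7 windows and in 1.55% of 32851 promoters of the same length. The looser motif TGANGTCA, of which the palindrome is 1 form, was found on either strand in Tnp1, Prm1 and Prm3, 3 of 7, against 7.49% of all promoters. TATAAA was in Prm2 alone (12.4% of all promoters) and TATATA in Tnp2 and Prm2 (5.25% of all promoters), all within 35 bases of the start. The match lay 94 to 87 bases before the start in Tnp1, 64 to 57 in Prm1 and 60 to 53 in Prm3. A match of letters is not a bound site. Neither H1fnt nor Hils1 held any of the 4 motifs. The windows of the 5 genes with a match follow, 5′ to 3′ on the gene's own strand (minus in each case), with the matched motif in capitals. In Prm1 the capitals match TGANGTCA when read on the other strand. In Prm2 the capitals join overlapping matches to TATAAA (read on the other strand) and TATATA.
Tnp1, chr1:73015900-73016149: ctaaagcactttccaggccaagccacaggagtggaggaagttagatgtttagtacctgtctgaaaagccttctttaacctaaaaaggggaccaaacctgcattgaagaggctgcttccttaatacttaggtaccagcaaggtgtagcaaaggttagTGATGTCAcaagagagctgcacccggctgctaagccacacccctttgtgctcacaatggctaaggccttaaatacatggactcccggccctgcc
Tnp2, chr16:10788656-10788905: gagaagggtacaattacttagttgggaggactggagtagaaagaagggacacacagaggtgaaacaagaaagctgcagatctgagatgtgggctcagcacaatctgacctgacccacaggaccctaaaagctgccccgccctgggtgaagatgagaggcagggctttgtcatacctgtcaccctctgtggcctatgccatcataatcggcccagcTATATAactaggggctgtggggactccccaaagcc
Prm3, chr16:10790915-10791164: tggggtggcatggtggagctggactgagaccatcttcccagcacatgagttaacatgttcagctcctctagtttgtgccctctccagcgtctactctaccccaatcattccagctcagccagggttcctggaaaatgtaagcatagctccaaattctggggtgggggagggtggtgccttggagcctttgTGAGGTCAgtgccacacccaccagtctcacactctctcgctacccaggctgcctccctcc
Prm2, chr16:10792106-10792355: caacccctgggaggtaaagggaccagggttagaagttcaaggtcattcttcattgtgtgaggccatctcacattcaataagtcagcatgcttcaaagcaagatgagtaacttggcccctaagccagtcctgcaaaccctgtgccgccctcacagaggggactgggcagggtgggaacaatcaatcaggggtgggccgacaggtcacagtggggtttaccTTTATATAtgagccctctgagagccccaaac
Prm1, chr16:10796824-10797073: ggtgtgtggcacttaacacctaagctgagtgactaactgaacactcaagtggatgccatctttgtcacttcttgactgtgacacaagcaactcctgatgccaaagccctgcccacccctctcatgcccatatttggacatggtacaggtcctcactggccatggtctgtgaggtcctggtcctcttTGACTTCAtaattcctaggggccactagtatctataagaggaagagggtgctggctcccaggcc

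All 7 genes were detected in both controls and were lower in both mutants, where 1 (Pld6 KO) and 2 (Dnmt3L KO) of them reached 1 FPKM. Together they took 127044 fragments in the Dnmt3L heterozygote, 1575 in the Pld6 WT, 34 in the Pld6 KO and 114 in the Dnmt3L KO. These are 0.199% of the fragments of the heterozygote, 0.00388% of the Pld6 WT, 0.000112% of the Pld6 KO and 0.000228% of the Dnmt3L KO. The exact 95% binomial intervals of the 4 shares do not overlap, but as said above they may be too narrow. Tnp1 alone held 83 of the 114 fragments in the Dnmt3L KO and 7 of the 34 in the Pld6 KO. The gap between the mutants thus rests on Tnp1. In bulk RNA such as this, fewer cells of a type and less RNA per cell cannot be told apart. Intervals given for counts and ratios are exact 95% intervals and cover counting error only, since the reads carried no molecular identifiers.

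**Figure D1:**
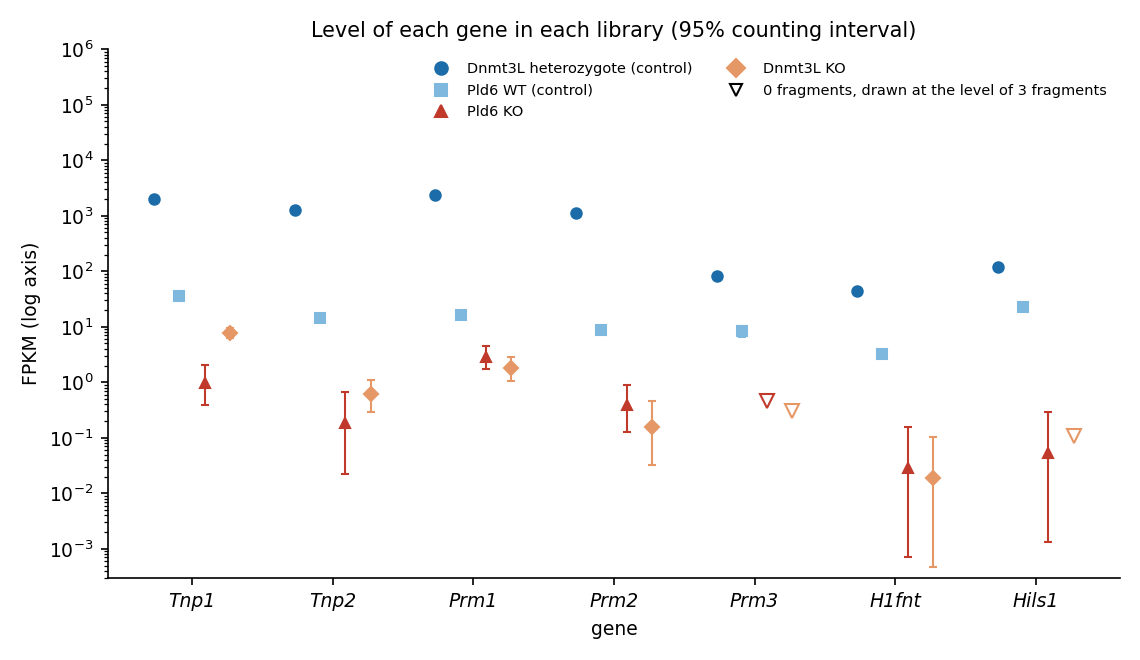
FPKM of the 7 genes (x axis) in each library on a log axis, with points for the libraries and bars for the 95% counting interval. Open triangles stand for 0 fragments and are drawn at the level that 3 fragments would give. In each gene both mutants lie below both controls, and the Dnmt3L heterozygote lies above the Pld6 WT.

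Transition proteins bind the DNA for a short time between histones and protamines. Tnp1 was at 2007 FPKM in the heterozygote and at 35.5 FPKM in the Pld6 WT. It was at 0.987 FPKM (7 fragments) in the Pld6 KO, while the Dnmt3L KO had 7.83 FPKM (83 fragments). Tnp2 was at 1255 FPKM and 14.2 FPKM in the same controls, and its mutant levels were 0.181 FPKM (2 fragments, Pld6 KO) and 0.607 FPKM (10 fragments, Dnmt3L KO). In both genes the controls stood far apart from each other and the groups did not overlap. Measured against the lower control, the Pld6 WT, Tnp1 was 35.9-fold lower in the Pld6 KO (17.2 to 90.1) and 4.53-fold lower in the Dnmt3L KO (3.55 to 5.84). Tnp2 was 78.2-fold lower in the Pld6 KO (21.4 to 651) and 23.4-fold lower in the Dnmt3L KO (12.5 to 49.5). The Pld6 WT is of the other line for the Dnmt3L KO. Against the heterozygote of its own line, the Dnmt3L KO was 256-fold lower at Tnp1 (207 to 322) and 2069-fold lower at Tnp2 (1125 to 4315). In the Dnmt3L KO Tnp1 was the member at the highest FPKM, while in the Pld6 KO this was Prm1 (2.87 FPKM). Tnp1 was the only member whose FPKM + 1 was more than 2-fold higher in the Dnmt3L KO than in the Pld6 KO (2.15 on the log2 scale). By the same rule 0 members were lower. The ratio of plain FPKM of Tnp1 was 7.93 (3.68 to 20.3) for the Dnmt3L KO over the Pld6 KO. That of Tnp2 was 3.34 (0.713 to 31.4), an interval that includes 1. For comparison, 9.43% of all genes had an FPKM + 1 more than 2-fold higher in the Dnmt3L KO than in the Pld6 KO, so 1 of 7 is little above this share. 1700027A15Rik, next to Tnp1, had no fragment in the Pld6 KO and 1 in the other mutant.

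Protamines replace the transition proteins, and Prm2 is made as a precursor that is cut. Prm1 reached 2372 FPKM in the heterozygote, the highest level of any member in any of the 4 libraries, and 16.3 FPKM in the Pld6 WT. The Pld6 KO had 2.87 FPKM (18 fragments) of it and the Dnmt3L KO 1.81 FPKM (17 fragments). Prm2 was at 1135 FPKM, 8.93 FPKM, 0.385 FPKM (5 fragments) and 0.154 FPKM (3 fragments) in the same order. The ratio of the Dnmt3L KO to the Pld6 KO was 0.632 for Prm1 (0.306 to 1.30) and 0.401 for Prm2 (0.0623 to 2.06), and both intervals include 1. Against the Pld6 WT, Prm1 was 5.67-fold lower in the Pld6 KO (3.45 to 9.86) and 8.97-fold lower in the Dnmt3L KO (5.39 to 15.9). Prm2 was 23.2-fold (9.72 to 72.5) and 57.8-fold (19.4 to 284) lower. Against the heterozygote of its own line, the Dnmt3L KO was 1308-fold lower at Prm1 (817 to 2246) and 7347-fold lower at Prm2 (2514 to 35628). Prm3, which encodes an acidic protein of the same cluster that is not a DNA-packing protamine, was at 83.2 FPKM in the heterozygote and 8.28 FPKM (69 fragments) in the WT. It had 0 fragments in both mutants, at least 17.9-fold lower than the Pld6 WT in the Pld6 KO and at least 26.8-fold lower in the Dnmt3L KO, with 0 fragments read as up to 3. Against the heterozygote, Prm3 was at least 269-fold lower in the Dnmt3L KO.

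The linker histones bind between nucleosomes, H1fnt at the pole of the nucleus under the acrosome and Hils1 in elongating spermatids. H1fnt was at 43.4 FPKM and 3.23 FPKM in the heterozygote and the WT, with 1 fragment in each mutant (Pld6 KO 0.0281 FPKM, Dnmt3L KO 0.0188 FPKM). It was 115-fold (20.4 to 4582) and 172-fold (30.4 to 6850.2) lower than the Pld6 WT in the Pld6 KO and the Dnmt3L KO. Hils1 was at 120.4 FPKM and 22.9 FPKM in these controls, with 1 fragment (0.0531 FPKM) in the Pld6 KO and 0 in the Dnmt3L KO. That put it 431-fold (77.1 to 17067) and at least 215-fold below the Pld6 WT. Against the heterozygote of its own line, the Dnmt3L KO was 2312-fold lower at H1fnt (415 to 91330) and at least 1129.5-fold lower at Hils1. The host gene Sgca was at 2.02 FPKM and 0.959 FPKM in the controls, 0.185 FPKM in the Pld6 KO and without a fragment in the Dnmt3L KO, and it was not more than 2-fold lower than both controls on the FPKM + 1 scale.

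By the rule that FPKM + 1 lies more than 2-fold below that of each control, 7 of 7 genes were lower in the Pld6 KO and 7 of 7 in the Dnmt3L KO. Of all 23980 genes, 5.41% were lower by this rule in the Pld6 KO and 5.78% in the Dnmt3L KO, and 4.61% in both. The 2 comparisons share their controls. With 1 added to each FPKM, the median log2 change of the 7 genes from the mean of the controls was -8.27 in the Pld6 KO (from -9.07 to -4.56) and -6.86 in the Dnmt3L KO (from -8.95 to -4.58), beside a median of 0 over all genes. Without the pseudocount, and with genes at 0 set to 3 fragments, the medians were -10.02 and -9.39 on the log2 scale. These sizes rest on the Dnmt3L heterozygote. Without it, against the Pld6 WT alone, the 7 genes were still called lower in both mutants (6.46% and 8.75% of all genes were), and the medians were -3.21 and -3.10. Against the heterozygote alone, the medians were -9.26 in the Pld6 KO and -7.83 in the Dnmt3L KO, with 7 of 7 called lower in each (13.4% and 8.22% of all genes were).

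The test over all genes did not pass any of the 7. In the quasi-likelihood fit of edgeR, adjusted by Benjamini-Hochberg, the adjusted p ranged from 0.103 (Hils1) to 0.511 (Prm1) in the Pld6 KO and from 0.0967 (Hils1) to 0.492 (Tnp1) in the Dnmt3L KO, and 0 of 18657 genes passed 0.05 in either mutant (0% called lower). At an unadjusted p under 0.05, 7 of 7 were lower in each, beside 7.41% and 7.72% of all genes. With both KO libraries as 1 group against both controls, the adjusted p ranged from 0.0877 (Hils1) to 0.306 (Tnp1), and again 0 members and 0% of 17686 genes passed, with 7 members and 8.75% of all genes at an unadjusted p under 0.05. These fits had 1 and 2 residual degrees of freedom, and in the former these came from the 2 controls alone. A p above the threshold in fits of this size does not show that a gene did not differ.

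Other models of the same counts gave calls. When line was added as a term, 1 KO effect shared by both lines was fitted within the lines. In this fit 6 of 7 genes passed edgeR's test with adjusted p from 0.000683 (Tnp2 and Hils1) to 0.0068 (Prm2), beside 5.98% of all genes. Prm1 did not pass (adjusted p = 0.0834). The fit had 1 residual degree of freedom, and its p-values do not measure either KO against its own control. The changes within the lines were unlike. The median log2 change of FPKM + 1 over the 7 genes was -3.21 in the Pld6 KO against the Pld6 WT. In the Dnmt3L KO against the heterozygote it was -7.83. The lines also differed in Sertoli cell markers, as given above, and the part of sorting or of line in this spread was not tested. DESeq2 passed 6 of 7 genes in the Pld6 KO and 6 of 7 in the Dnmt3L KO, beside 5.38% and 5.17% of all genes tested, and the exception was Prm3, with a DESeq2 adjusted p of 0.611 and 0.515. With no filter on low counts, edgeR passed Hils1 in each mutant (2.09% of all genes in the Pld6 KO and 2.06% in the Dnmt3L KO), and Hils1 and H1fnt with both KO libraries as 1 group (1.82%). With both KO libraries as 1 group DESeq2 passed 7 of 7, beside 6.3% of all genes.

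Tnp1, Tnp2, Prm1 and Prm2 were among the genes that differed most between the controls. The Dnmt3L heterozygote was more than 2-fold above the Pld6 WT at 7 of 7 genes, against 11.1% of all genes. The ratio was 146 for Prm1 (123 to 174), 127 for Prm2 (108 to 150.3), 88.4 for Tnp2 (77.0 to 102) and 56.6 for Tnp1 (50.7 to 63.4). It was 13.4 for H1fnt (11.4 to 15.9), 10.1 for Prm3 (7.88 to 13.0) and 5.25 for Hils1 (4.81 to 5.75), and no interval of the former 4 genes reaches one of the latter 3, a division made after the values were seen. Among 18415 genes with more than 3 fragments in the Pld6 WT, the median ratio was 1.03, 0 genes had a larger ratio than Prm1, 2 a larger one than Prm2, 4 than Tnp2 and 20 than Tnp1, while 6.79% had a larger one than Hils1. This is a comparison of 1 library with 1 other and has no replicate.

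The order of the levels changed with it. In the heterozygote the order from the top was Prm1, Tnp1, Tnp2, Prm2, Hils1, Prm3 and H1fnt, and no counting interval overlapped the next. In the Pld6 WT it was Tnp1, Hils1, Prm1, Tnp2, Prm2, Prm3 and H1fnt, where Prm1 and Tnp2, and Prm2 and Prm3, did not differ beyond counting error. The protamine genes, Prm3 included, summed to 3590.1 FPKM and 33.5 FPKM in the heterozygote and the WT, the level of the transition proteins 3262 FPKM and 49.7 FPKM, and that of the linker histones 164 FPKM and 26.1 FPKM. Among all genes of a library, Prm1 ranked 19 by FPKM in the heterozygote and 6038 in the Pld6 WT.

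**Figure D2:**
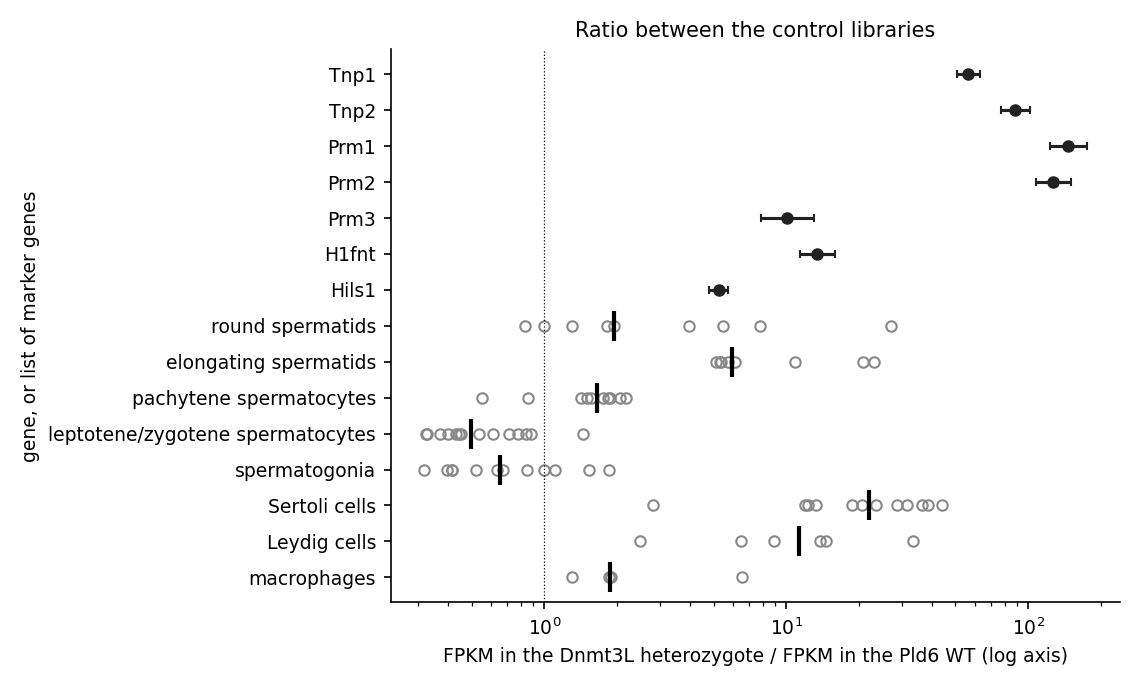
Ratio of FPKM in the Dnmt3L heterozygote to FPKM in the Pld6 WT (log axis) for each of the 7 genes with its 95% counting interval, and for the genes of 8 marker lists as open circles with a bar at the list's median. Tnp1, Tnp2, Prm1 and Prm2 lie between 56.6 and 146, beyond every marker gene shown.

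The markers of elongating spermatids were higher in the heterozygote as well, and those of round spermatids were mixed. The ratio of the heterozygote to the Pld6 WT ran from 5.11 (Odf1) to 22.9 (Cabs1) over the 8 markers of elongating spermatids, with a median of 5.96, and 8 of 8 were more than 2-fold higher. Prm3, H1fnt and Hils1 lie within that range, while the former 4 lie above it. Over the 9 markers of round spermatids the ratio ran from 0.828 (Izumo1, a sperm-egg fusion protein) to 27.0 (Fscn3, an actin bundler), with a median of 1.94 and 4 of 9 more than 2-fold higher. Of the pachytene markers 2 of 10 were, of the L/Z markers 0 of 14, of the spermatogonial markers 0 of 12, of the Sertoli markers 12 of 12, of the Leydig markers 5 of 6 and of the macrophage markers 1 of the 4 listed in the table. All markers of elongating spermatids and of Sertoli cells, and 5 of 6 Leydig markers, were thus more than 2-fold higher in the library with the higher protamine level. Their part in the result was not tested.

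The mutants were then compared on the same lists. Markers of elongating spermatids summed to 685 FPKM in the heterozygote and 109 FPKM in the WT, but to 7.69 FPKM and 6.24 FPKM in the Pld6 KO and the Dnmt3L KO, and 7 of 8 were more than 2-fold below both controls in each mutant. Round spermatid markers summed to 191 FPKM, 80.9 FPKM, 11.6 FPKM and 21.8 FPKM in the same order, with 7 of 9 lower in the Pld6 KO and 6 of 9 in the Dnmt3L KO. Pachytene markers, of the stage after zygotene, summed to 1229.7 FPKM, 679 FPKM, 38.6 FPKM and 35.3 FPKM, with 9 of 10 lower in each. The L/Z markers summed to 1966 FPKM, 3242 FPKM, 1944 FPKM and 1200.1 FPKM in that order, so that their sum too was below both controls in each mutant. Their median log2 change was -0.31 in the Pld6 KO and -1.13 in the Dnmt3L KO, and 0 of 14 and 2 of 14 were lower by the 2-fold rule. Of 12 spermatogonial markers 0 and 1 were lower and 2 and 1 higher. Of the spermatid markers, Acrv1, Fscn3 and Cabs1 had 0 fragments in the Pld6 KO, and Tssk3, Smcp and Cabs1 had 0 in the Dnmt3L KO. Others were present, among them Spaca1, an acrosomal protein gene, at 3.15 FPKM (93 fragments) in the Pld6 KO and 15.3 FPKM (656 fragments) in the Dnmt3L KO, and Oaz3, an antizyme gene, at 3.75 FPKM (111 fragments) and 3.07 FPKM (136 fragments).

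**Figure D3:**
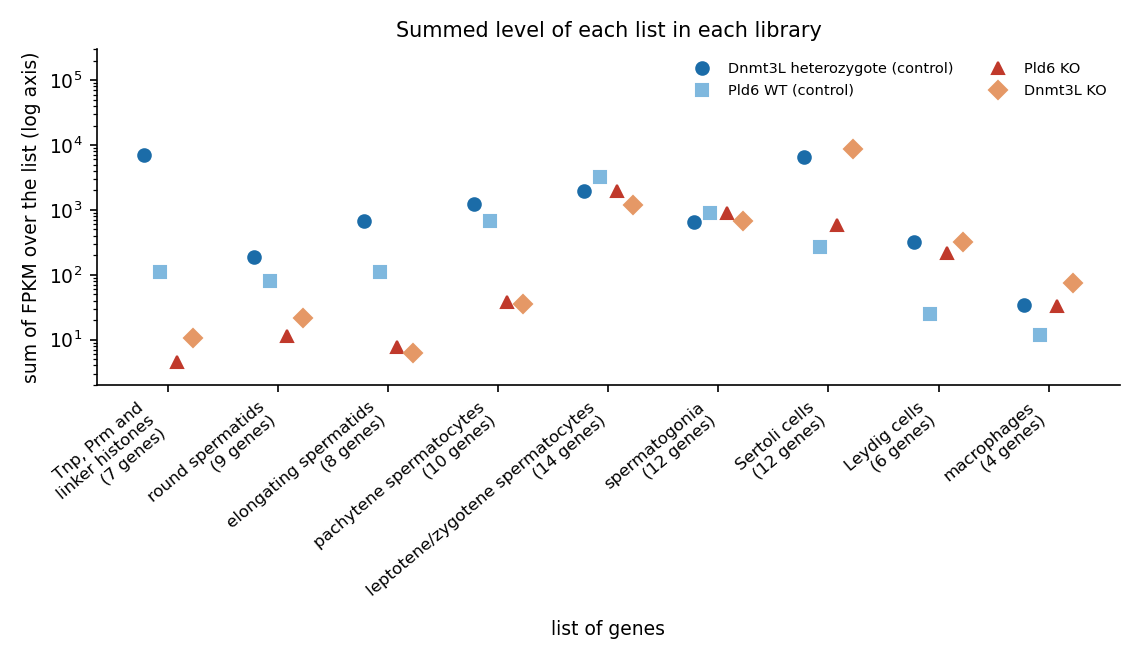
Sum of FPKM (log axis) of the 7 genes and of each marker list (x axis) in the 4 libraries, shown as points. The sums of the 7 genes, the spermatid lists, the pachytene list and the L/Z list are lower in both mutants than in both controls, the L/Z list by little in the Pld6 KO (1944 against 1966 FPKM in the heterozygote), and the Sertoli list is higher in the Dnmt3L heterozygote and the Dnmt3L KO than in the other libraries.

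The Leydig markers summed to 326 FPKM, 24.9 FPKM, 220 FPKM and 316 FPKM in the heterozygote, the WT, the Pld6 KO and the Dnmt3L KO, and the macrophage markers to 34.3 FPKM, 11.9 FPKM, 33.2 FPKM and 75.9 FPKM. Neither order follows that of the 7 genes, which were highest in the heterozygote, next in the Pld6 WT and lowest in the mutants.

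The genes that act on or beside these proteins were read from a list of 28. In the Pld6 KO 8 were more than 2-fold below both controls and 1 above, and in the Dnmt3L KO 9 were below and 0 above. Of all genes, 5.41% were below and 1.04% above in the Pld6 KO, and 5.78% and 2.14% in the Dnmt3L KO. The medians of the list were -0.24 and -0.87 on the log2 scale, against -8.27 and -6.86 for the 7 genes. By edgeR's test 0 of 28 passed in either mutant, with the smallest adjusted p at 0.104 (Fhl5 in the Dnmt3L KO, Benjamini-Hochberg). With line as a term 8 of 28 passed edgeR's test, all lower, beside 5.98% of all genes. The 8 were Crem, Tbpl1, Rfx2, Ybx2, Ybx3, Hspa2, Phf7 and H2afb1.

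Among 7 regulators of haploid transcription, 3 were lower in the Pld6 KO and 4 in the Dnmt3L KO (5.41% and 5.78% of all genes were). Crem, the activator of many spermatid genes, was at 28.0 FPKM and 23.7 FPKM in the heterozygote and the WT, and at 7.21 FPKM and 6.71 FPKM in the Pld6 KO and the Dnmt3L KO. Fhl5, which encodes the CREM coactivator ACT, was at 28.1 FPKM and 6.12 FPKM in the controls, 2.06 FPKM in the Pld6 KO and 0 fragments in the Dnmt3L KO. Rfx2, a factor of spermatid and cilium genes, was at 22.4 FPKM and 20.5 FPKM in the controls and at 7.23 FPKM and 3.67 FPKM in the Pld6 KO and the Dnmt3L KO. Sox30, a factor that starts the haploid programme, was lower by the rule in the Dnmt3L KO only, at 2.46 FPKM against 8.25 FPKM and 8.83 FPKM, with 3.94 FPKM in the Pld6 KO, and the difference between the mutants was not tested. Tbpl1 (the TBP-like factor TRF2), Taf7l and the histone demethylase gene Kdm3a passed the rule in neither mutant. Unlike the 7 genes, Crem and Rfx2 differed little between the controls, by 0.23 and 0.12 on the log2 scale of FPKM + 1.

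Of 5 genes of mRNA storage, translation and protein handling, 3 were lower in both mutants (4.61% of all genes were). Ybx2, which encodes the germ cell protein MSY2 that stores protamine mRNA, was at 267 FPKM and 214 FPKM in the heterozygote and the WT, and at 57.7 FPKM and 26.0 FPKM in the Pld6 KO and the Dnmt3L KO. Its relative Ybx3 was at 163 FPKM and 106 FPKM, and at 31.2 FPKM and 34.1 FPKM. Hspa2, the testis chaperone that handles transition proteins, was at 151 FPKM and 114 FPKM, and at 52.5 FPKM and 43.2 FPKM. Tarbp2, needed for translation of protamine mRNA, and the kinase gene Camk4 passed the rule in neither mutant. The 3 lower genes were thus still at 26.0 FPKM or more in the mutants, while the 7 genes were at 7.83 FPKM or less there.

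Of 11 genes of histone acetylation, marking and eviction, 1 was lower in each mutant (5.41% and 5.78% of all genes were). This was Phf7, which encodes a ubiquitin ligase of histone marking, at 228 FPKM and 189 FPKM in the controls and 50.9 FPKM and 26.3 FPKM in the mutants. The other 10 (Brdt, Kat5, Ep400, Epc1, Nutm1, Chd5, Rnf8, Psme4, Pygo2 and Cdyl) passed the rule in neither mutant. Brdt, the reader of acetylated histones in spermatids, was at 43.0 FPKM and 49.1 FPKM in the controls and at 28.7 FPKM and 23.6 FPKM in the Pld6 KO and the Dnmt3L KO.

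Of 5 testis histone genes, 1 was lower in each mutant, and not the same gene (5.41% and 5.78% of all genes were lower). H2afb1, which encodes a short H2A variant of the testis, was lower in the Pld6 KO, at 51.5 FPKM (1079 fragments) in the heterozygote, 1.83 FPKM (24 fragments) in the WT, 0 fragments in the Pld6 KO and 0.980 FPKM (15 fragments) in the Dnmt3L KO. Of all genes on the list it was the one whose controls stood apart most, by 4.22 on the log2 scale. Hist1h2aa, the H2A variant TH2A, was at 3.70 FPKM and 3.74 FPKM in the controls, 8.97 FPKM in the Pld6 KO and only 1.10 FPKM in the Dnmt3L KO, which puts it above both controls in the former and below both in the latter. Its partner Hist1h2ba (TH2B), the linker histone gene Hist1h1t and H3f3b (histone H3.3) passed the rule in neither mutant. Clustered histone mRNAs mostly lack poly(A) tails, and libraries of this kind measure them poorly.

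**Figure D4:**
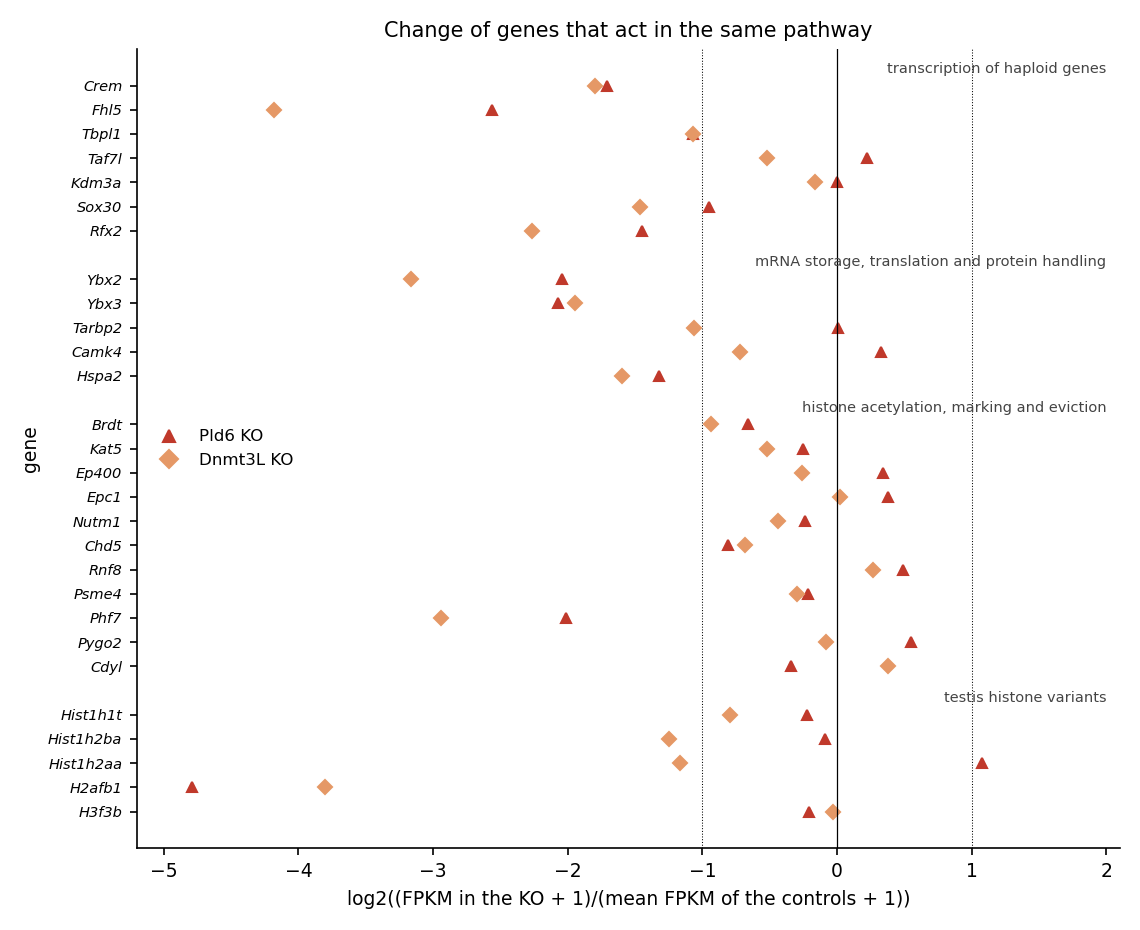
Log2 change of each of the 28 genes of the pathway list (y axis, grouped by role) in the Pld6 KO (triangles) and the Dnmt3L KO (diamonds) against the mean of the controls, with dotted lines at a 2-fold change. Most genes lie within the dotted lines, and Fhl5 and H2afb1 lie farthest to the left.

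The neighbours of the 7 genes on the chromosome were read as a check on the loci. Of 9 different neighbours, 1 was more than 2-fold lower than both controls in both mutants, and this was 1700027A15Rik beside Tnp1, at 152 FPKM and 4.24 FPKM in the heterozygote and the WT. As said above, its reads may not have been told apart from those of Tnp1. Socs1, 2399 bases beyond Tnp2, was at 5.92 FPKM and 14.9 FPKM in the controls and at 17.7 FPKM and 8.60 FPKM in the Pld6 KO and the Dnmt3L KO. Rmi2, 38236 bases beyond Prm1 on the other side, was at 2.61 FPKM, 2.21 FPKM, 2.12 FPKM and 2.28 FPKM in the same order. The 4 genes of the cluster were thus lower in the mutants between neighbours that passed the rule in neither. Of the neighbours of Tnp1, H1fnt and Hils1, Igfbp5, Olfr286, Ppp1r9b and the overlapping Sgca also passed the rule in neither mutant, while Zfp641 was higher in the Dnmt3L KO and Col1a1 in the Pld6 KO.

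**Figure D5:**
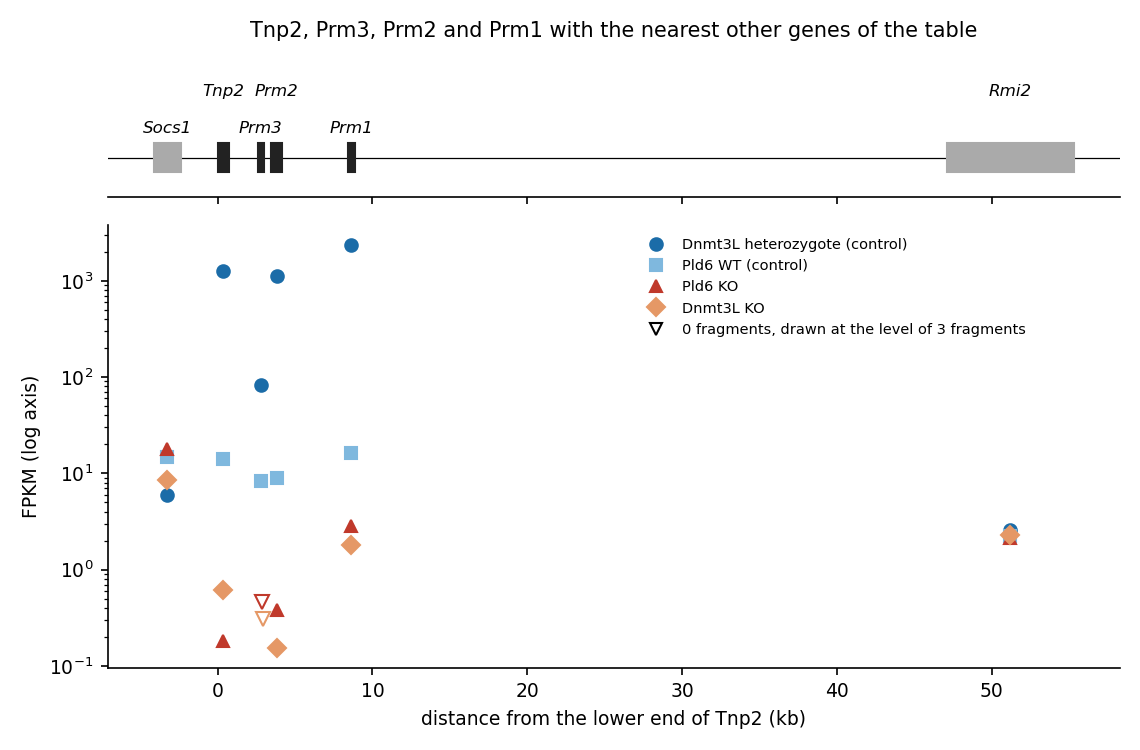
Top, position of Tnp2, Prm3, Prm2 and Prm1 (black) and of the nearest other genes of the table (grey), as distance in kb from the lower end of Tnp2. Bottom, FPKM of each gene in the 4 libraries on a log axis, where Socs1 and Rmi2 stay between 2.12 and 17.7 FPKM in every library and the 4 genes between them spread from below 1 to 2372 FPKM.

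The genes whose pattern over the 4 libraries was most like the mean pattern of the 7 were found by Euclidean distance between centred log2(FPKM + 1) values, among 14409 other genes with a mean FPKM of at least 1. They were 1700027A15Rik (distance 0.862), Hmgb4 (1.23), 1700015G11Rik (1.37), 1700034E13Rik (1.38) and 1700019M22Rik (1.47), while the members themselves lay at 1.43 (Tnp2) to 2.19 (H1fnt). Reads of 1700027A15Rik may not have been told apart from those of Tnp1, so its likeness may not be independent of that member. Hmgb4, a high mobility group gene of the testis, was at 130.3 FPKM and 11.5 FPKM in the heterozygote and the WT, with 2 fragments in each mutant. 1700015G11Rik and 1700034E13Rik had 0 fragments in both mutants. With 4 libraries the likeness is a description only.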

How the data were processed

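PolyA(+) RNA of FACS-purified L/Z spermatocytes was sequenced from 1 end (50 bases) with a stranded kit in 4 libraries. The authors used TopHat2 for alignment and Cuffdiff for RefSeq gene levels, and the labels name mm10. Version numbers beyond this are not given in the sources used here. The deposited table holds, per gene and library, an estimated count of fragments (97.3% to 97.4% whole numbers to within 1e-06) and an FPKM scaled by the authors' tool. It marks 31 values of 28 genes as failed, none in the 7 genes. A further 2 columns of per-sample values were not used.

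The members, gene lists and tests were chosen with earlier results of these data known. Changes were taken as log2((FPKM + 1)/(FPKM + 1)), which understates changes of low genes, and a gene was called when FPKM + 1 differed by more than 2-fold from both controls. Estimated counts were rounded and tested with edgeR 4.0.16 (TMM, filterByExpr, quasi-likelihood, Benjamini-Hochberg at 0.05 over all genes), in 3 groups and with both KO libraries as 1 group. The models were tested on simulated data, where the 3-group fit missed most changes other than the largest ones simulated. Alternatives were a pseudocount of 0.1 FPKM, TMM scaling, a 4-fold threshold, no filter, DESeq2 1.42.0 and its size factors, line as a term, and each library left out. The 3 groups could not be tested without 1 control, since no residual degrees of freedom would be left. Since effective lengths are blank in the table, depth-scaled TMM values were put on the FPKM scale through each gene's FPKM per fragment. The named genes are the members, the targeted genes, the pathway list, the nearest genes on each side, and the 5 most alike in pattern. Bounds for genes without fragments use a floor of 3 fragments per library. Coordinates come from RefSeq genes of GRCm38.p6, and strands and overlaps from GENCODE M21. The marker lists cover round and elongating spermatids, pachytene and L/Z spermatocytes, spermatogonia, Sertoli and Leydig cells and macrophages, with 75 of 76 genes in the table.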

Additional observations from a re-analysis of the deposited data

Results flagged for a closer look

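Hist1h2aa, the testis H2A variant, went in opposite directions in the lines, each mutant set against the control of its own line. It was 1.07 higher on the log2 scale of FPKM + 1 in the Pld6 KO than in the Pld6 WT (71 against 38 fragments), and its value in the Dnmt3L KO against the Dnmt3L heterozygote was -1.16 (13 against 60 fragments). The difference between the lines was 2.24 on the log2 scale. It rests on 1 library per genotype and was not tested. As said above, clustered histone mRNAs mostly lack poly(A) tails and are measured poorly in libraries of this kind.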

How the results depend on the processing

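The count of 7 lower genes in each mutant was 7 under every alternative run (a pseudocount of 0.1 FPKM, TMM scaling, a 4-fold threshold, and without either control). The median log2 change was between -9.26 and -3.21 in the Pld6 KO and between -7.83 and -3.10 in the Dnmt3L KO when 1 control was left out, and the smaller falls are those without the Dnmt3L heterozygote. With edgeR and no filter on low counts, 1 gene (Hils1) passed in each mutant, beside 429 (2.09%) and 423 (2.06%) lower genes in all, and 2 (Hils1 and H1fnt) with both KO libraries as 1 group, beside 375 (1.82%). DESeq2 passed 6, 6 and 7 genes in these comparisons, beside 957, 919 and 1220 lower genes in all, where edgeR passed 0. With line as a term (a block by line, with 1 KO effect shared by both lines), 6 of 7 passed, beside 1058 lower genes in all. That fit had 1 residual degree of freedom. With DESeq2 size factors edgeR passed 0 of 7 in each comparison. With each of the 4 libraries left out in turn, 0 of 7 passed in the comparison of both KO libraries with both controls (at an unadjusted p under 0.05, 5 of 7 without the heterozygote and 7 of 7 without any other library). The cause of these differences between models was not tested. No paired analysis was possible because the labels carry no replicate numbers, other than the fit with line. The pathway counts, under alternatives chosen after seeing the data, ran from 8 to 10 in the Pld6 KO and from 9 to 12 in the Dnmt3L KO. Fold changes in the mutants are imprecise, since 4 of 7 genes had 3 fragments or fewer in each.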
